A study of Homo sapiens with 2 samples.

Results

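The genes described here encode pyruvate dehydrogenase, its regulators, the enzymes of the tricarboxylic acid (TCA) cycle and the enzymes that feed the cycle or shuttle its intermediates. They are 35 gene symbols taken from a list by name, out of 24462 distinct symbols in the count files. The counts come from the human lung adenocarcinoma line A549, transfected either with siRNAs against ADGRF4, an adhesion G protein-coupled receptor, or with control siRNAs. Each treatment gave 1 library of 3' end counts, so every difference is between 2 libraries with no replicates, and the treatments could not be tested against each other. In bulk RNA, fewer cells of a kind and less RNA per cell cannot be told apart. The study's title asks what ADGRF4 knockdown does to gene expression. The time after transfection is not given in the sources used here.

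Pyruvate dehydrogenase is a large mitochondrial complex that turns pyruvate from glycolysis into acetyl-CoA. Pyruvate dehydrogenase kinases switch it off by phosphorylation and phosphatases switch it on again. The TCA cycle oxidises the acetyl group through citrate, isocitrate, 2-oxoglutarate, succinyl-CoA, succinate, fumarate, malate and oxaloacetate, and hands electrons to the respiratory chain. Lung cancer cells also draw on the cycle for citrate, aspartate and glutamate used in growth, and refill it through pyruvate carboxylase and glutamine.

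The ADGRF4 siRNA library held 9825320 counts and the control library 10396047, with a count for 17193 and 17190 symbols. ADGRF4 itself had 1 count in the ADGRF4 siRNA library (exact Poisson 95% interval 0.0253 to 5.57) and 3 in the control library (0.619 to 8.77). Neither is above 3 counts, the upper limit for a gene with none, so the silenced gene does not check the labels. The 15 markers of A549 and of epithelium summed to 186459 counts in the ADGRF4 siRNA library and 239394 in the control library. They ranged from EPCAM (38 under ADGRF4 siRNA and 75 under control siRNA) to KRT18 (79367 under ADGRF4 siRNA and 58990 under control siRNA). By 1.5-fold 3 of them (20%) were higher and 8 (53.3%) lower, where 21.1% and 22.3% of all compared symbols were. Markers of other cells had from 0 to 68 counts in a library. The 5 leukocyte markers summed to 36 counts under ADGRF4 siRNA and 54 under control siRNA, of which CD14 had 30 under ADGRF4 siRNA and 45 under control siRNA, and CD3E had 0 in both libraries. The 3 endothelial markers summed to 3 counts under ADGRF4 siRNA and 0 under control siRNA. The 4 fibroblast markers summed to 51 under ADGRF4 siRNA and 50 under control siRNA. Of these, COL1A1 had 45 under ADGRF4 siRNA and 50 under control siRNA, and COL1A2 had 6 under ADGRF4 siRNA and 0 under control siRNA. PDGFRB and LUM were at 0 in both. Of the 4 markers of adult alveolar cells, SFTPA1 and SFTPA2 had 0 counts in both, while AGER had 68 under ADGRF4 siRNA and 47 under control siRNA. The part of these markers in the results was not tested.

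By the ratio and the count limit set out next, FH, SDHB, SDHC and IDH1 were more than 2-fold lower in the ADGRF4 siRNA library. PC was more than 2-fold higher. A gene was compared when its counts in the 2 libraries averaged 30 or more, which holds for 34 of the 35 members and for 11771 symbols in all. A compared gene was called higher or lower by size alone, when its counts scaled to library size (CPM, with TMM factors from edgeR), with 1 CPM added, were at least 1.5-fold apart. By that limit 5 members (14.7%) were higher in the ADGRF4 siRNA library, where 21.1% of all compared symbols were, and 8 (23.5%) were lower, where 22.3% of all were. The other 21 lay between the limits. At 2-fold, 1 member was higher (2.94%, against 7.84% of all) and 4 were lower (11.8%, against 10.4% of all). The median log2 ratio of the members was -0.15 and that of all compared symbols -0.016. The SD of the ratios was 0.80 among members and 0.77 among all. Together the 35 genes took 0.263% of the counts in the ADGRF4 siRNA library and 0.275% in the control library. Scaled to total counts instead, 2 members were higher, where 16.1% of all compared symbols were, and 10 were lower, where 27.7% of all were. By step, the median log2 ratio lay between -0.20 and 0.21 in 5 of 6 groups of members and was -1.34 from succinate to oxaloacetate. No difference between steps was tested.

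**Figure D1:**
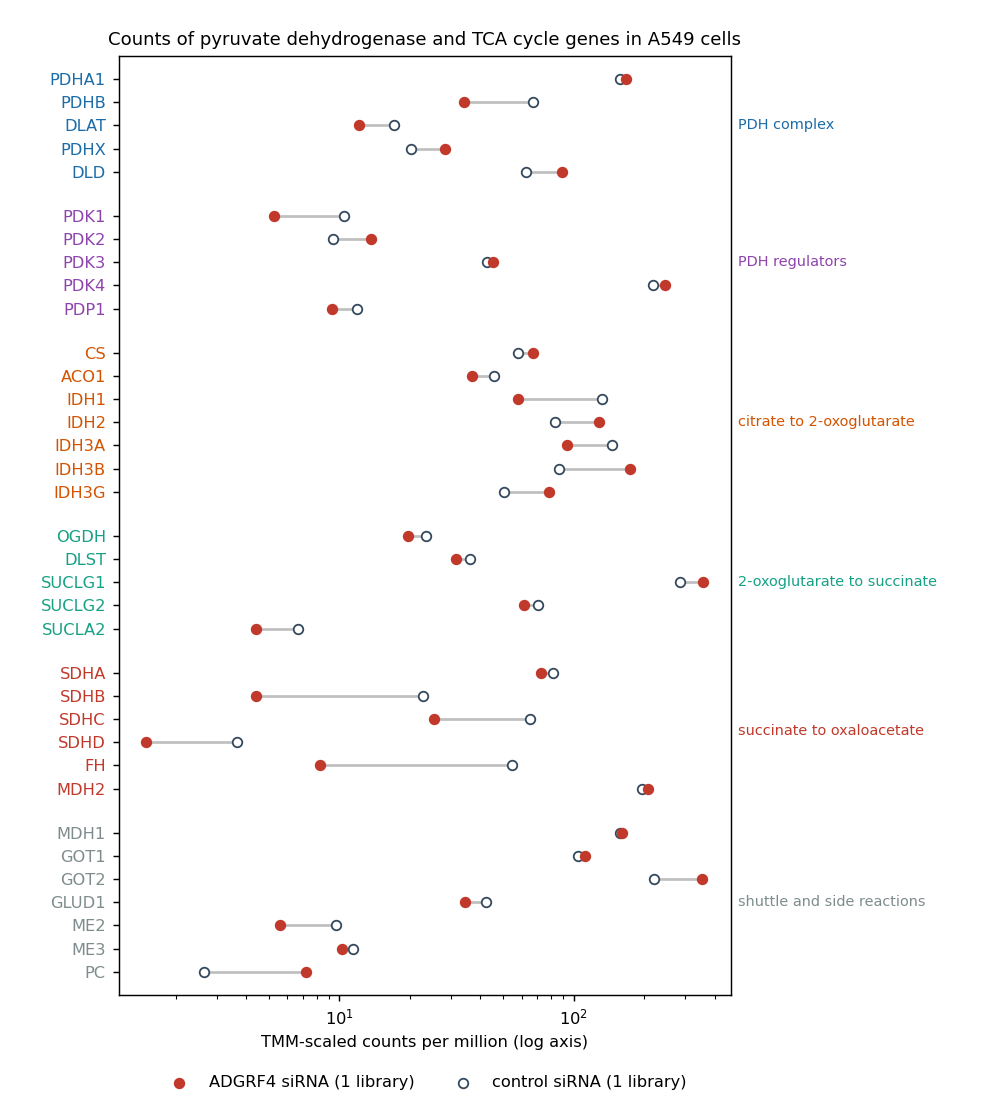
TMM-scaled CPM of all 35 genes (horizontal, log axis) in the ADGRF4 siRNA library (filled points) and the control library (open points), grouped by role. With the ADGRF4 siRNA library's value before that of the control library, the widest gaps are in FH (8.25 and 54.6 CPM), SDHB (4.39 and 22.7 CPM) and PC (7.18 and 2.65 CPM).

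The upstream sequences of the compared members that were 2-fold apart with 1 CPM added are shown because these genes carry the largest differences in the list. RefSeq promoters (GRCh38.p14) were matched by symbol for 32 of the 35 members. No entry was matched for SDHC, OGDH and PDP1. Each stretch lies within the 250 bases before the RefSeq start and stops before the first exon that GENCODE 29 annotates there. Only exons were excluded and the first RefSeq entry was used, so a stretch can lie in an intron downstream of another start. All 4 genes lie on the minus strand and are written 5′ to 3′. FH is at chr1:241519762-241520005, SDHB at chr1:17054171-17054282, IDH1 at chr2:208254459-208254708 and PC at chr11:66958384-66958633. Capitals mark CCAAT boxes (CCAAT or ATTGG) and GC boxes (GGGCGG or CCGCCC), searched on both strands.
FH: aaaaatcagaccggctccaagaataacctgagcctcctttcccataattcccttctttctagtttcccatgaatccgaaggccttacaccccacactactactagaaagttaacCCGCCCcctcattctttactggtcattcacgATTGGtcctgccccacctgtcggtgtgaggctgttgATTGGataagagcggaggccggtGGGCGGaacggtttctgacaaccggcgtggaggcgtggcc
SDHB: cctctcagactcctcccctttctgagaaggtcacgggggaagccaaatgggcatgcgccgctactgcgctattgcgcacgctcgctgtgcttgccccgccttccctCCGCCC
IDH1: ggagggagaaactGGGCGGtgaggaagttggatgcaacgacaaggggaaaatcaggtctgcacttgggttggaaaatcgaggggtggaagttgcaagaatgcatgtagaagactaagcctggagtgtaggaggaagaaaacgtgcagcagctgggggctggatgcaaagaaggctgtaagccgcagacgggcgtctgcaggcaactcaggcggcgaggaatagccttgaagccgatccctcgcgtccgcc
PC: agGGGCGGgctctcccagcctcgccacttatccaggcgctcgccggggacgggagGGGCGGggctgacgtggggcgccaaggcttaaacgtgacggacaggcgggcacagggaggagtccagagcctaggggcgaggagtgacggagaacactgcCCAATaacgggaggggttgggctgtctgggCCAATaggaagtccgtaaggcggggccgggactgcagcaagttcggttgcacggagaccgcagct
The FH stretch of 244 bases held 2 CCAAT boxes and 2 GC boxes, as did the PC stretch. SDHB (112 bases) and IDH1 (250 bases) each held 1 GC box and no CCAAT box. Among 27305 RefSeq promoters, a CCAAT box was found in 33.0% and a GC box in 42.3% of the 250-base windows. In windows cut to the length printed for FH the shares were 32.7% and 41.6%, and in those cut as for SDHB they were 14.4% and 18.7%. The motif of NRF1, a factor known to act on respiratory genes (GCGCA, any base, GCGC, or its reverse complement), was in the 250-base window of 6 of 32 members (18.8%), against 5.53% of all promoters. An ETS motif (CCGGAAGT or its reverse complement) was in 4 of 32 (12.5%), against 3.64%. Neither motif was in the windows of FH, SDHB, IDH1 or PC. Over the same windows, 15 of 32 members (46.9%) held a CCAAT box and 19 (59.4%) a GC box. A TATA motif (TATAAA or its reverse complement) was in 2 of 32 (6.25%), against 11.1% of all promoters. These 5 motifs are all that were searched. The set of all promoters was not limited to genes compared here. These matches describe letters only and were not set against the ratios.

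In the pyruvate dehydrogenase complex, 1 of 5 genes was lower and 4 lay between the limits. Of all compared symbols, 21.1% were higher and 22.3% lower. Subunits of 1 enzyme were apart from each other. PDHA1 and PDHB encode the alpha and beta subunits of E1, the component that decarboxylates pyruvate. PDHA1 had 1567 counts in the ADGRF4 siRNA library and 1721 in the control library, a fold of 1.07 (exact 95% interval of the ratio 0.997 to 1.14). This fold, like the others printed for single genes, is the ratio of TMM-scaled CPM of the ADGRF4 siRNA library over the control library with nothing added, and its interval covers counting error only. PDHB had 319 counts under ADGRF4 siRNA and 735 under control siRNA, 1.96-fold lower (1.72 to 2.25). DLAT, the E2 acetyltransferase, had 113 counts under ADGRF4 siRNA and 188 under control siRNA, 1.42-fold lower (1.12 to 1.81), short of the limit. PDHX, which holds E3 in the complex, had 263 counts under ADGRF4 siRNA and 222 under control siRNA (1.39-fold, 1.16 to 1.67). DLD, the E3 dehydrogenase shared with other complexes, had 833 counts under ADGRF4 siRNA and 684 under control siRNA (1.43-fold, 1.29 to 1.58). PDHX and DLD have AT-rich 3' ends, and centring on base composition, described with the GC plot, put both past 1.5-fold higher. Over the last 300 bases of PDHA1, an exon of MAP3K15 (68 counts under ADGRF4 siRNA and 154 under control siRNA) lies on the other strand, and over those of DLAT one of PIH1D2 (30 counts under ADGRF4 siRNA and 30 under control siRNA). Whether counting used strand is not given in the sources used here.

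Among the regulators, PDK1 was lower and the other 4 genes lay between the limits. The kinases PDK1 to PDK4 phosphorylate E1 alpha. PDK1, a known target of hypoxia signalling, had 49 counts (5.25 CPM) in the ADGRF4 siRNA library and 115 (10.5 CPM) in the control library, with a log2 ratio of -0.88. PDK4, the kinase known to be induced by fasting, had 2302 counts under ADGRF4 siRNA and 2398 under control siRNA, a fold of 1.13 (1.06 to 1.19). PDK4 supplied 79.4% of the kinase counts in the ADGRF4 siRNA library and 77.8% in the control library, and PDK1 supplied 1.69% under ADGRF4 siRNA and 3.73% under control siRNA. The intervals of the 2 libraries overlapped for the share of PDK4 and did not for that of PDK1. PDK3 had 421 counts under ADGRF4 siRNA and 466 under control siRNA (1.06-fold, 0.927 to 1.21). PDK2 had 127 counts under ADGRF4 siRNA and 103 under control siRNA (1.45-fold, 1.11 to 1.89), and its log2 ratio was 0.49 before and -0.23 after centring on base composition. An exon of SAMD14 (55 counts under ADGRF4 siRNA and 30 under control siRNA) lies on the other strand over its last 300 bases. PDP1, a phosphatase that reactivates the complex, had 87 counts under ADGRF4 siRNA and 130 under control siRNA (1.27-fold lower, 0.964 to 1.69). Its interval includes no difference.

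**Figure D2:**
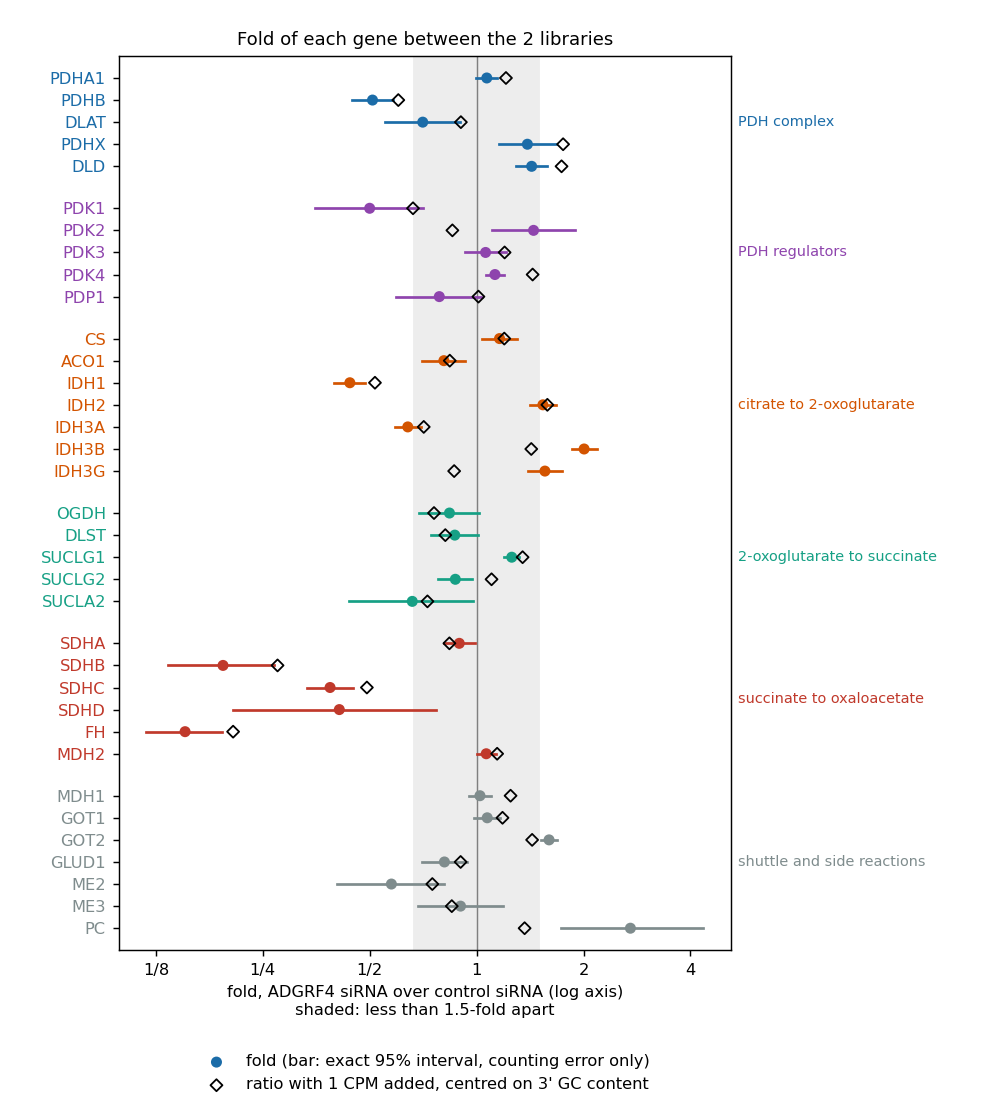
Fold of each gene, ADGRF4 siRNA library over control library, on a log axis, with the exact 95% interval of the ratio from counting error only. Open diamonds give the ratio with 1 CPM added, centred on 3' GC content, and the shaded band covers genes less than 1.5-fold apart. FH, SDHB and SDHC stay left of the band both ways, while the diamonds of PC, IDH3B, IDH3G and GOT2 lie inside it.

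From citrate to 2-oxoglutarate, 3 genes were higher (42.9%), 2 were lower (28.6%) and 2 lay between the limits. Among all compared symbols 21.1% were higher and 22.3% lower. All 5 genes of this step that were apart encode isocitrate dehydrogenases. CS, citrate synthase, had 625 counts in the ADGRF4 siRNA library and 632 in the control library (1.16-fold, 1.04 to 1.30). ACO1, the cytosolic aconitase that also acts as an iron sensor, had 344 counts under ADGRF4 siRNA and 499 under control siRNA (1.24-fold lower, 1.08 to 1.42). IDH1 and IDH2 both make NADPH, IDH1 in cytosol and peroxisomes and IDH2 in mitochondria. IDH1 had 543 counts under ADGRF4 siRNA and 1449 under control siRNA, 2.27-fold lower (2.06 to 2.52). IDH2 had 1200 counts under ADGRF4 siRNA and 916 under control siRNA, 1.54-fold higher (1.41 to 1.68). The pair thus lay on opposite sides, and IDH2 made up 68.8% of their joint counts in the ADGRF4 siRNA library (exact binomial 95% interval 66.6 to 71.0%) and 38.7% in the control library (36.8 to 40.7%). After centring on base composition their log2 ratios were -0.95 and 0.66, a gap of 1.61. IDH1-AS1, annotated across IDH1 on the other strand, had 19 counts under ADGRF4 siRNA and 58 under control siRNA.

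The NAD-dependent isocitrate dehydrogenase of the cycle proper is built from IDH3A, its catalytic subunit, with IDH3B and IDH3G. IDH3A had 874 counts in the ADGRF4 siRNA library and 1602 in the control library, 1.56-fold lower (1.44 to 1.70). IDH3B had 1629 counts under ADGRF4 siRNA and 952 under control siRNA, 2.01-fold higher (1.85 to 2.18), and IDH3G had 734 counts under ADGRF4 siRNA and 553 under control siRNA, 1.56-fold higher (1.39 to 1.74). IDH3A was 27.0% of the subunit counts in the ADGRF4 siRNA library and 51.6% in the control library. IDH3B was 50.3% under ADGRF4 siRNA and 30.6% under control siRNA. The 3' ends of these genes differ in base composition, with 40.0% GC in IDH3A, 53.7% in IDH3B and 62.7% in IDH3G. Centring on it gave log2 ratios of -0.49 for IDH3A and 0.51 for IDH3B, both then short of 1.5-fold, and turned IDH3G from 0.63 to -0.21. Exons on the other strand belong to CIB2, with 667 counts under ADGRF4 siRNA and 361 under control siRNA, at IDH3A, and to SSR4, with 3231 counts under ADGRF4 siRNA and 1808 under control siRNA, at IDH3G. Neither lies in the last 300 bases.

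From 2-oxoglutarate to succinate, 0 of 5 genes passed the 1.5-fold limit in either direction. The shares of all compared symbols that did were 21.1% higher and 22.3% lower. OGDH and DLST, the E1 and E2 components of the 2-oxoglutarate dehydrogenase complex, were both short of the limit. OGDH had 183 counts under ADGRF4 siRNA and 256 under control siRNA (1.19-fold lower, 0.983 to 1.45). DLST had 293 counts under ADGRF4 siRNA and 396 under control siRNA (1.15-fold lower, 0.988 to 1.34). Both intervals include no difference. A copy named DLSTP1 had 204 counts under ADGRF4 siRNA and 237 under control siRNA, and reads shared by DLST and this copy could be placed on either. SUCLG1, the alpha subunit of succinyl-CoA synthetase, had 3340 counts under ADGRF4 siRNA and 3120 under control siRNA (1.26-fold, 1.20 to 1.32), the highest count of any member in both libraries. SUCLG2, the beta subunit of the GTP-forming enzyme, had 574 counts under ADGRF4 siRNA and 773 under control siRNA (1.15-fold lower, 1.03 to 1.28). SUCLA2, the beta subunit of the ATP-forming enzyme, had 41 counts under ADGRF4 siRNA and 73 under control siRNA (1.52-fold lower, 1.02 to 2.28). With 1 CPM added its log2 ratio was -0.51, short of 1.5-fold, and under total-count scaling it was -0.63, past it. SUCLG2 made up 93.3% of the beta subunit counts in the ADGRF4 siRNA library and 91.4% in the control library, with overlapping intervals.

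The lowest ratios of the list were in the next steps, from succinate to malate. FH, fumarase, which hydrates fumarate to malate, had 77 counts in the ADGRF4 siRNA library and 598 in the control library, 6.62-fold lower (5.22 to 8.51). Only 53 of the 11771 compared symbols had a lower log2 ratio. SDHB, the iron-sulphur subunit of succinate dehydrogenase, had 41 counts under ADGRF4 siRNA and 249 under control siRNA, 5.18-fold lower (3.71 to 7.39), and 123 symbols had a lower ratio. SDHC, a membrane anchor of the same enzyme, had 236 counts under ADGRF4 siRNA and 716 under control siRNA, 2.59-fold lower (2.23 to 3.01). SDHD, the other anchor, had 14 counts under ADGRF4 siRNA and 40 under control siRNA, 2.44-fold lower (1.30 to 4.85). It fell under the limit of 30 counts on average and was not called. SDHA, the flavoprotein that binds succinate, had 678 counts under ADGRF4 siRNA and 890 under control siRNA, only 1.12-fold lower (1.01 to 1.24). MDH2, the mitochondrial malate dehydrogenase that closes the cycle, had 1938 counts under ADGRF4 siRNA and 2136 under control siRNA (1.06-fold, 1.00 to 1.13).

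Succinate dehydrogenase is complex II of the respiratory chain and needs all of its subunits. In the ADGRF4 siRNA library SDHA took 70.0% of the SDH counts (67.0 to 72.8%), against 47.0% (44.7 to 49.2%) in the control library. SDHB took 4.23% (3.05 to 5.70%) under ADGRF4 siRNA and 13.1% (11.7 to 14.7%) under control siRNA. FH, SDHB and SDHC have AT-rich 3' ends of 30.7%, 34.3% and 31.0% GC, a class in which lower ratios were common. Of the genes in the same class of 3' GC content, 33.1% were at least 1.5-fold lower for FH and SDHC and 30.3% for SDHB. Within those classes, 1 of 577 genes had a lower ratio than FH, 9 of 578 had a lower ratio than SDHB, and 36 of 577 had a lower ratio than SDHC. Centred on base composition, the log2 ratios were -2.28 for FH, -1.86 for SDHB, -1.03 for SDHC and -0.25 for SDHA. Copies of SDHA named SDHAP1, SDHAP2 and SDHAP3 had 11, 30 and 298 counts in the ADGRF4 siRNA library, against 22, 62 and 311 in the control library. GENCODE 29 also names 4 copies of SDHC, 3 of SDHD and 1 of FH, for which no row was found here, and none of SDHB. How reads with several map positions were treated is not given in the sources used here, so the counts of SDHA, SDHC, SDHD and FH are uncertain. On the other strand, exons of CFAP126 (11 counts under ADGRF4 siRNA and 14 under control siRNA) overlap SDHC and exons of TIMM8B (1497 counts under ADGRF4 siRNA and 975 under control siRNA) overlap SDHD, outside the last 300 bases of each.

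**Figure D3:**
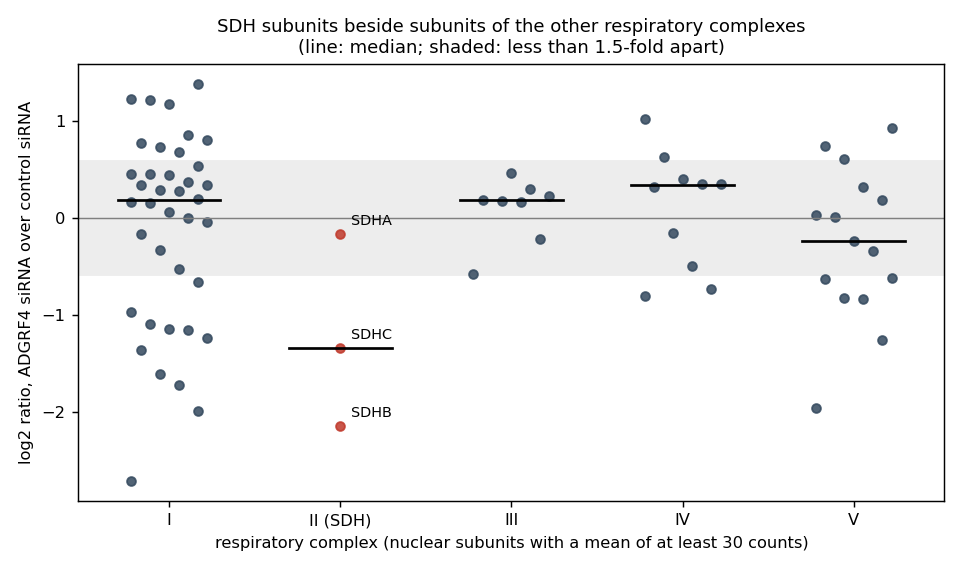
Log2 ratio (ADGRF4 siRNA over control siRNA, 1 CPM added) of the compared nuclear subunits of the respiratory complexes, each point 1 gene, with the median as a line and the range under 1.5-fold shaded. Genes are grouped by symbol, so NDUFA4, now placed in complex IV, is drawn under complex I. The SDH subunits of complex II lie at -0.16 (SDHA), -1.34 (SDHC) and -2.14 (SDHB), and complex I spans -2.71 to 1.38.

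By symbol, 38 compared genes were listed as subunits of complex I, among them NDUFA4, which is now placed in complex IV. At 1.5-fold, 9 (23.7%) were higher and 11 (28.9%) lower, near the 21.1% and 22.3% of all compared symbols. At 2-fold, 4 (10.5%) were higher and 9 (23.7%) lower, where 7.84% and 10.4% of all were. NDUFA4 was among the lower ones at both limits. The median log2 ratio of the list was 0.18. NDUFB3 had 38 counts in the ADGRF4 siRNA library and 352 in the control library, 7.90-fold lower (5.64 to 11.3), and NDUFB5 had 91 under ADGRF4 siRNA and 457 under control siRNA, 4.28-fold lower (3.41 to 5.42). NDUFC1, with 181 counts under ADGRF4 siRNA and 724 under control siRNA, was 3.41-fold lower (2.89 to 4.04), and NDUFA8, with 191 under ADGRF4 siRNA and 704 under control siRNA, was 3.14-fold lower (2.67 to 3.71). All 4 are accessory subunits. All 8 compared subunits of complex III lay between the limits. Complex IV gave 2 higher (20%) and 2 lower (20%) of 10. Complex V gave 3 higher (20%) and 6 lower (40.0%) of 15. After centring on base composition it gave 0 and 3, where 15.1% and 19.2% of all were. The lower ones include ATP5C1, the gamma subunit of ATP synthase, with 454 counts under ADGRF4 siRNA and 2097 under control siRNA, 3.94-fold lower (3.56 to 4.37). The medians were 0.18, 0.34 and -0.23 for complexes III, IV and V. No difference between complexes was tested.

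Of the genes of the malate-aspartate shuttle and side reactions, 2 of 7 were higher (28.6%), 1 was lower (14.3%) and 4 lay between the limits. Among all compared symbols 21.1% were higher and 22.3% lower. GOT2, the mitochondrial aspartate aminotransferase, had 3294 counts in the ADGRF4 siRNA library and 2416 in the control library, 1.60-fold higher (1.52 to 1.69). GOT1, its cytosolic partner, had 1040 counts under ADGRF4 siRNA and 1139 under control siRNA (1.07-fold, 0.984 to 1.17). GOT2 made up 76.0% of the pair's counts in the ADGRF4 siRNA library and 68.0% in the control library. MDH1, the cytosolic malate dehydrogenase, had 1500 counts under ADGRF4 siRNA and 1722 under control siRNA (1.02-fold, 0.953 to 1.10), and its share of the counts of MDH1 and MDH2 was 43.6% under ADGRF4 siRNA and 44.6% under control siRNA, with overlapping intervals. GLUD1, which turns glutamate into 2-oxoglutarate, had 321 counts under ADGRF4 siRNA and 464 under control siRNA (1.23-fold lower, 1.07 to 1.43). Of the 5 copies GENCODE 29 names for it, GLUD1P3 had 33 counts under ADGRF4 siRNA and 52 under control siRNA. For GOT2 it names 4 copies, with no row found here.

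PC, pyruvate carboxylase, which refills oxaloacetate, had the highest ratio of the list, with 67 counts in the ADGRF4 siRNA library and 29 in the control library, 2.71-fold higher (1.73 to 4.35). Its 3' end is GC-rich (58.7%), a class in which 58.2% of genes were at least 1.5-fold higher. The log2 ratio was 1.16 before and 0.45 after centring on base composition. ME2, the NAD-dependent mitochondrial malic enzyme, had 52 counts under ADGRF4 siRNA and 106 under control siRNA, 1.74-fold lower (1.24 to 2.47). ME3, the NADP-dependent one, had 96 counts under ADGRF4 siRNA and 125 under control siRNA (1.11-fold lower, 0.844 to 1.46). The shares of ME2 in their joint counts were 35.1% under ADGRF4 siRNA and 45.9% under control siRNA, with overlapping intervals.

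**Figure D4:**
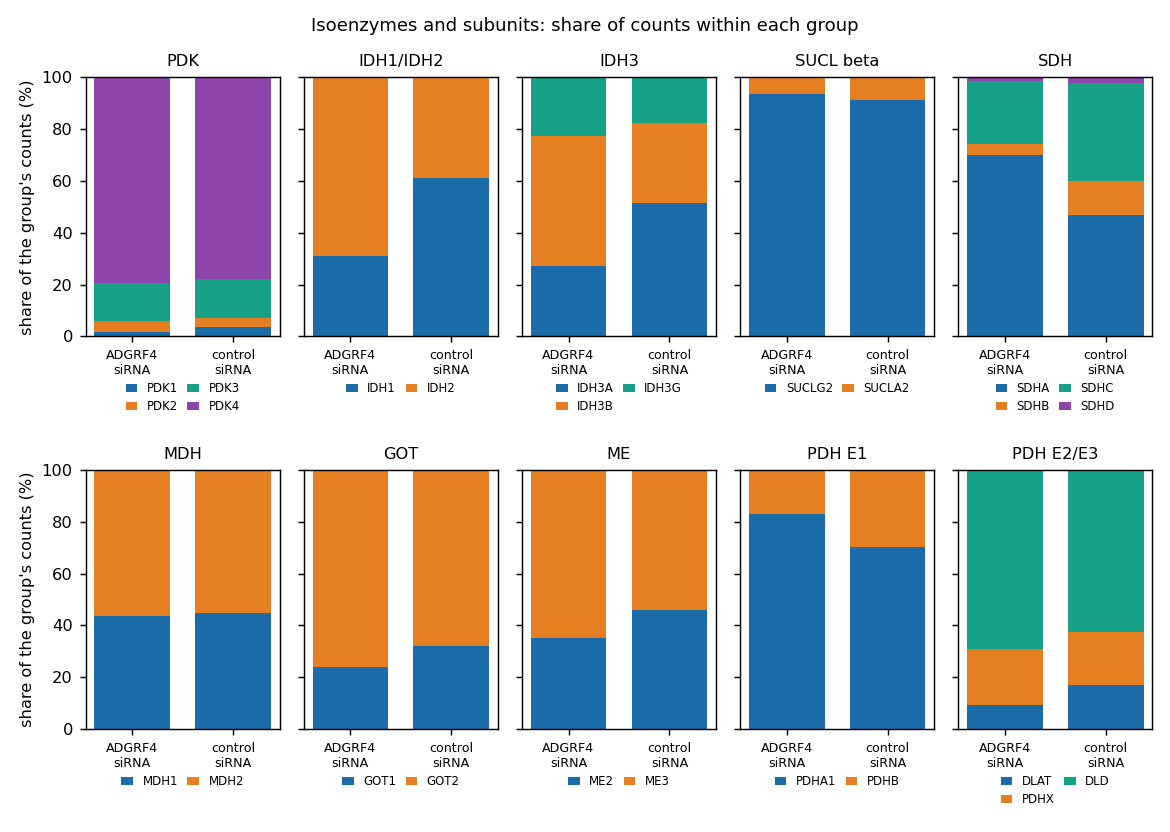
Share of each gene in the summed counts of its isoenzyme or subunit group, with the ADGRF4 siRNA library left of the control library in each panel. Under ADGRF4 siRNA and under control siRNA, IDH1 takes 31.2% and 61.3% of the IDH1 and IDH2 counts, IDH3A 27.0% and 51.6% of the IDH3 counts and SDHA 70.0% and 47.0% of the SDH counts, while the MDH panel is nearly the same in both.

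Shares within a group do not depend on how the libraries are scaled to each other. They are given to compare the 2 libraries, since a gene's count also depends on how well its 3' end is read, and do not measure how much of each enzyme a cell holds. Of the 26 shares in 10 groups, 15 had intervals that did not overlap between the libraries. The shares of a pair mirror each other, so both enter this count. These intervals cover counting error only. No like count was made over groups of other genes, so it is not read as particular to these groups. The widest ratio of folds within a group was in SDH, where SDHA and SDHB were 4.63-fold apart, followed by IDH1 and IDH2 (3.50-fold), IDH3 (3.14-fold) and PDK (2.89-fold). Centred on base composition, with 1 CPM added, the log2 ratios of the same genes lay 1.61 apart in SDH and 1.61 in IDH1 and IDH2. The gap was 1.01 in IDH3 and 0.37 in PDK. In PDK the highest centred log2 ratio was then that of PDK4 (0.52), with PDK2 at -0.23 and PDK1 at -0.60. PDHB took 16.9% of the E1 counts in the ADGRF4 siRNA library (15.2 to 18.7%) and 29.9% in the control library (28.1 to 31.8%). DLAT took 9.35% of the counts of DLAT, PDHX and DLD under ADGRF4 siRNA and 17.2% under control siRNA.

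The ratio of a gene moved with the base composition of its 3' end across the whole data set, and the members lie across that range. In the classes of lowest and highest 3' GC content (medians 25.7% and 63.3%), the median log2 ratio was -0.35 and 0.84. Of the 5 members called higher, PC, IDH3B, IDH3G and GOT2 had 49.0 to 62.7% GC, and IDH2 had 43.7%. All 8 called lower had at most 40.0%. When each ratio was centred on the median of its class, 3 members were higher (IDH2, DLD and PDHX), where 15.1% of all compared symbols were, and 6 were lower (FH, SDHB, SDHC, IDH1, PDHB and PDK1), where 19.2% of all were. The part of base composition in the differences was not tested.

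**Figure D5:**
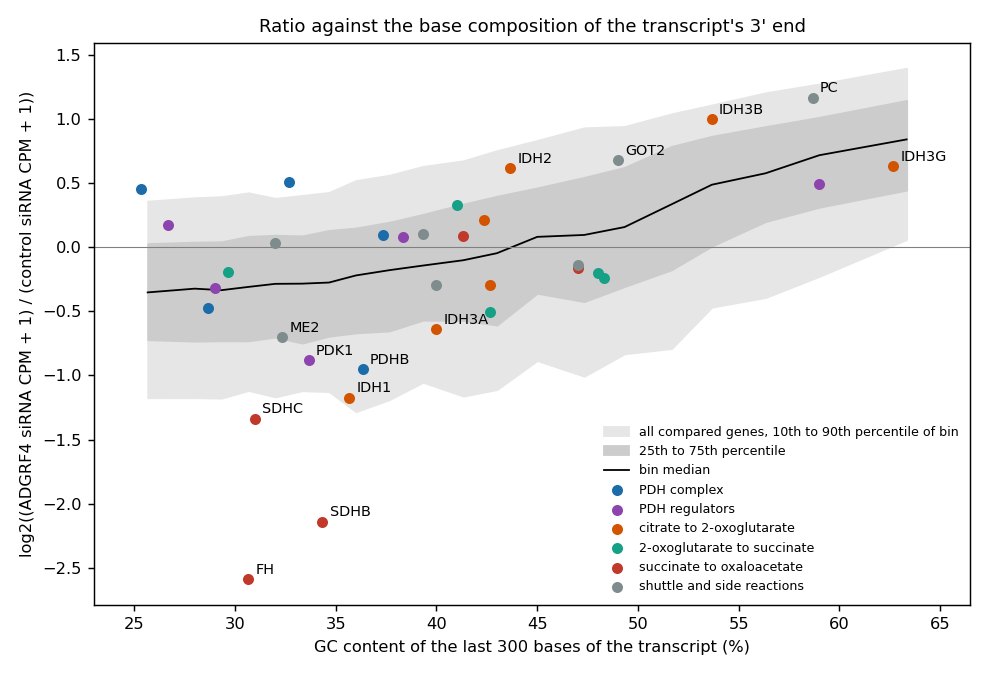
Log2 ratio of the 34 compared members (vertical) against 3' GC content, read over 300 bases of annotated transcript end (horizontal, %), over the percentiles of all compared genes in 20 classes of GC content. The class median climbs from -0.35 to 0.84, and FH, SDHB and SDHC lie under the 10th to 90th percentile band.

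Genes around pyruvate entry mostly lay between the limits, as 9 of 10 compared did. Of all compared symbols, 21.1% were higher and 22.3% lower. Of 10 compared genes for pyruvate supply, pyruvate transport and the cofactors of the complex, PKM, which makes pyruvate, was higher, with 42510 counts in the ADGRF4 siRNA library and 23535 in the control library (2.12-fold, 2.09 to 2.15). Its log2 ratio was 1.08 before and 0.51 after centring on base composition, which ends the call. After centring, MPC1, a pyruvate carrier subunit named here after its values were seen, was the 1 gene of the list called higher, with 90 counts under ADGRF4 siRNA, 80 under control siRNA and a log2 ratio of 0.36 before and 0.69 after. Before centring, the other 9 were neither higher nor lower by 1.5-fold. They include the pyruvate carrier subunit MPC2, with 680 counts under ADGRF4 siRNA and 1121 under control siRNA (1.41-fold lower, 1.28 to 1.55) and the phosphatase PDP2 (169 counts under ADGRF4 siRNA and 269 under control siRNA). Among 8 compared genes for other cycle enzymes and assembly factors, 2 were higher (25%) and 2 lower (25%), near the shares of all compared symbols. MRPS36, which binds E3 to the 2-oxoglutarate dehydrogenase complex, had 130 counts under ADGRF4 siRNA and 508 under control siRNA, 3.33-fold lower (2.74 to 4.07). SDHAF4, an assembly factor of SDHA, had 22 counts under ADGRF4 siRNA and 52 under control siRNA, 2.02-fold lower (1.20 to 3.48). D2HGDH, which oxidises D-2-hydroxyglutarate to 2-oxoglutarate, had 376 counts under ADGRF4 siRNA and 223 under control siRNA, 1.98-fold higher (1.67 to 2.34). Centring on base composition put its log2 ratio at 0.38, short of the limit, and left 1 gene of this list higher and 2 lower. After centring, 15.1% of all compared symbols were higher and 19.2% lower.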

How the data were processed

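Total RNA from A549 cells was extracted with Trizol and made into libraries with the Lexogen QuantSeq kit, which reads the 3' end of polyadenylated transcripts, per the labels' protocols. Per gene symbol, the authors deposited raw counts, 1 library per treatment. Bowtie2, edgeR and hg19 are named in the submitters' processing notes. What each was used for is not given in the sources used here, nor is the annotation, the strand setting or the handling of reads that map to several places.

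Rows that repeat a symbol were summed (286 symbols, none of them a member). Libraries were scaled by TMM in edgeR 4.0.16 (R 4.3.3), and log2 ratios used 1 CPM added. Intervals are exact (Clopper-Pearson) at 95%. No molecular identifiers are named in the labels, so reads may include PCR copies and the intervals cover counting error only. For each gene the longest GENCODE 29 transcript (GRCh38) was taken, and GC content over its final 300 bases was found for 11544 compared symbols (98.1%), matched through RefSeq synonyms, and ratios were centred in 20 classes of it. Overlapping genes and named copies come from the same annotation. RefSeq windows use the first entry of a gene.

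The members, the lists and the size limits were chosen with earlier results of these data known. Every member is reported. From each related list, up to 4 compared genes with the largest absolute log2 ratio could be named. MPC1, PCK2 and NDUFA4 lie outside that rule. Some genes that it could name are not reported here. Alternatives were total-count, upper-quartile and DESeq2 1.42.0 scaling, other pseudocounts, count limits and fold limits, centring on 3' GC content and thinning. In a further setting only the row with the most counts was kept for each repeated symbol. The ratio script was tested on simulated data. Python 3.11.15, numpy 2.4.6, pandas 2.3.3, scipy 1.17.1 and matplotlib 3.10.9 were used.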

Additional observations from a re-analysis of the deposited data

How the results depend on the processing

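Total-count scaling lowers every log2 ratio by 0.15 before the pseudocount. It gave 2 members at least 1.5-fold higher in place of 5, since IDH2, IDH3G and GOT2 no longer reached the limit. Centring on 3' GC content gave 3 higher and turned IDH3G to a log2 ratio of -0.21, and its share within IDH3, 4.88 percentage points larger in the ADGRF4 siRNA library as counted, to -1.64. The same difference in share went from -24.6 to -13.5 points for IDH3A and from -8.04 to -4.05 for GOT1. For IDH1 it went from -30.1 to -27.5 points. At the 2-fold limit 1 member was higher and 4 were lower. Of the related genes, in lists of 10, 8, 7, 15, 38, 8, 10 and 15 compared, 25 were then called in place of 49. Of all compared symbols, 7.84% were higher and 10.4% lower at 2-fold, and 21.1% and 22.3% at 1.5-fold. The count of members lower stayed between 6 and 10 under the other settings, and the median log2 ratio between -0.29 and -0.054. FH, SDHB, SDHC, IDH1, PDHB and PDK1 were called lower under every scaling, pseudocount, thinning, row and GC setting run. SUCLA2 was called lower with 0.1 CPM added and under total-count scaling, DLAT under total-count scaling, and ME2 was not called with 5 CPM added. The other scalings changed no call of a member. Depth limits most the genes with few counts, such as SDHD (14 counts under ADGRF4 siRNA and 40 under control siRNA) and PC (67 under ADGRF4 siRNA and 29 under control siRNA). No paired analysis was possible because each treatment has 1 library, and for the same reason no library could be left out.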

Other observations

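Mitochondrial carriers linked to the cycle lay mostly outside the limits, in both directions. Of 7 compared, 4 were at least 1.5-fold higher in the ADGRF4 siRNA library and 2 lower, where 21.1% and 22.3% of all compared symbols were. UCP2, an inner membrane carrier, had 580 counts in the ADGRF4 siRNA library and 310 in the control library (2.19-fold, 1.91 to 2.53). The dicarboxylate carrier SLC25A10 had 198 counts under ADGRF4 siRNA and 101 under control siRNA (2.30-fold, 1.80 to 2.95), and the 2-oxoglutarate carrier SLC25A11 had 2217 under ADGRF4 siRNA and 1223 under control siRNA (2.13-fold, 1.98 to 2.28). SLC25A12, an aspartate-glutamate carrier of the malate-aspartate shuttle, had 43 counts under ADGRF4 siRNA and 133 under control siRNA, 2.64-fold lower (1.86 to 3.81). The compared carriers have a median 3' GC content of 53.3%. Centred on it, 2 were higher (UCP2 and SLC25A11) and 2 lower, and SLC25A10 no longer reached the limit. Of all compared symbols, 15.1% were then higher and 19.2% lower.

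Enzymes that feed or drain the cycle gave 4 higher (26.7%) and 1 lower (6.67%) of 15 compared, where 21.1% and 22.3% of all compared symbols were. GPT2, the mitochondrial alanine aminotransferase, had 578 counts in the ADGRF4 siRNA library and 259 in the control library (2.62-fold, 2.26 to 3.04). GPT2 stayed past the limit once centred by GC class. BCKDHA, a subunit of the branched-chain ketoacid dehydrogenase, had 2460 counts under ADGRF4 siRNA and 1166 under control siRNA (2.47-fold, 2.31 to 2.66), and ASNS, asparagine synthetase, had 1423 under ADGRF4 siRNA and 869 under control siRNA (1.92-fold, 1.76 to 2.09). ME1, the cytosolic malic enzyme, had 217 counts under ADGRF4 siRNA and 477 under control siRNA, 1.87-fold lower (1.59 to 2.21). After centring, GPT2 and ASNS were the 2 higher genes of the 15, and BCKDHA (log2 ratio 0.58) and ME1 (-0.52) no longer reached the limit. The 1 lower gene was then PCK2, mitochondrial phosphoenolpyruvate carboxykinase, at -0.63, named after its values were seen. Centred in the same way, 15.1% of all compared symbols were higher and 19.2% lower.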
